A study of Homo sapiens with 20 samples.

Results

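The lincRNAs described here carry the name of a developmental transcription factor. A lincRNA is a long RNA without a recognised protein, transcribed outside coding genes or on the strand opposite to one. The members were chosen by name alone: every lincRNA record whose name starts with linc-SOX, linc-POU, linc-IRX, linc-HOX, linc-FOX, linc-NKX, linc-PAX, linc-LHX, linc-DLX, linc-SIX, linc-OTX, linc-EMX, linc-ZIC, linc-MEIS, linc-NR2F or linc-TBX, followed by a digit or capital letter. That rule gave 305 of 18132 lincRNA records, out of 38369 records in all, and the names hold 122 different coding genes. It also took in 11 records named after 4 genes outside these families (PAXIP1, POU2AF1, TBXA2R and TBXAS1), 2 of which were expressed.

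Polyadenylated RNA was sequenced in neural progenitors that had been made from the human embryonic stem cell line H1, which is an established line. The progenitors were turned towards neurons by taking FGF away and adding BDNF, and were collected at 7 times from day 0, the progenitors themselves, to day 18 (days 1, 2 and 4, then 5, 11 and 18). Each day had 3 cultures except day 5, which had 2 after the submitters left out 1 as an outlier. The cells of days 5, 11 and 18 had been replated at day 4 on poly-D-lysine and laminin, so that the change of surface and the step from day 4 to day 5 cannot be told apart. All cells came from 1 line, and no other genotype or treatment was compared.

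The files give 1 FPKM value (fragments per kilobase of exon, scaled to the mapped fragments of a library) for each record and day, estimated over the cultures of that day. No spread between cultures could be computed, so that no difference given here has a replicate check, an error or a test. A difference is given as log2(FPKM + 0.1) at the later day minus that at the earlier day, and at least 2-fold means at least 1 on that scale. A record is called expressed where its mean over the 7 days was at least 0.5 FPKM. A rough scale of small movements comes from lincRNA records between days 1 and 2, a step taken because they differ little there. It mixes change over time with error, and it is not a spread between cultures or an error of the other days. With a mean of 0.5 to 1 FPKM the middle 90% of 1430 records lay between -0.57 and 0.56. With a mean of 10 FPKM or more the middle 90% of 515 records lay between -0.24 and 0.43.

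Transcription factors of the SOX, POU, PAX, ZIC and related families set the identity of neural progenitors and neurons, and many of their genes sit alone in wide intergenic regions. Long non-coding RNAs are common beside such genes, either running through them on the other strand, starting from the same promoter and running away, or lying at a distance. Several have names of their own, among them SOX2-OT around SOX2, CRNDE beside IRX5, PAUPAR beside PAX6 and PANTR1 beside POU3F3.

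Markers of the labelled cells were present. The summed FPKM of 8 neural stem cell markers went from 3669 at day 0 to 1823 at day 18, most of it VIM (2948 to 1493). Of the 8, 1 was at least 2-fold lower (NES) and 2 were at least 2-fold higher (PAX6 and HES5). The sum of 7 neuronal markers went from 532 to 1595, 6 of the 7 being at least 2-fold higher at day 18. RBFOX1, listed as an eighth, had no record. All 6 glial markers stayed under a mean of 0.5 FPKM, with a sum of at most 1.18 on any day. Of the 6 mesenchymal markers, 5 were expressed and at least 2-fold lower at day 18, their sum going from 645 to 56.1 with COL1A1 at 0 on every day, and the sum of 4 pluripotency markers went from 24.1 to 4.84. That last sum was DPPA4 and LIN28B, since POU5F1 and NANOG were near 0 on all days (at most 0.108 and 0.0207 FPKM). Their part in the members' values was not tested, and in bulk RNA fewer cells of a type and less RNA per cell cannot be told apart. Expressed records as a whole were lower at day 18: the median difference of the 14443 records with a mean of at least 1 FPKM was -0.56. Counts of members higher or lower at day 18 are therefore given relative to that median beside the plain counts. Differences of single members are plain unless stated. Recentred on that median, 25 of 43 members checked singly changed sign or crossed the 2-fold line.

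Most of the members were silent or nearly so. Of the 305, 49 were listed at 0 on all 7 days and 197 stayed under 0.1 FPKM on every day, while 55 (18.0%) were expressed, 40 had a mean of at least 1 FPKM and 11 a mean of at least 10 FPKM. Among all lincRNA records 22.5% were expressed, 14.6% had a mean of at least 1 FPKM and 2.84% of at least 10 FPKM. At the threshold, the lowest members inside were linc-FOXJ2 at a mean of 0.525 FPKM and linc-OTX2-2 at 0.514, and the highest outside were linc-LHX5-2 at 0.466 and linc-MEIS1-7 at 0.449.

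The families differed in how many members were expressed. FOX, the largest group, had 13 of 67, POU 9 of 42, SOX 8 of 30, ZIC 5 of 14, NR2F 5 of 12, MEIS 3 of 13, PAX 3 of 20, OTX 2 of 3, IRX 2 of 27, HOX 2 of 20 and the linc-SIX names 1 of 6. The NKX (13 members), TBX (14), LHX (8), DLX (4) and EMX (1) groups had none, and their highest member was linc-LHX5-2. The coding genes of several of these groups were quiet too: 1 of 37 HOX records, 1 of 13 NKX records, 1 of 13 TBX records, 0 of 6 DLX records and 0 of 2 EMX records were expressed, against 14 of 19 SOX, 10 of 16 POU and 5 of 5 ZIC records. Other families went the other way. Of the IRX coding records 5 of 6 were expressed, beside 2 of 27 members. Of the OTX coding records 0 of 2 were, beside 2 of 3 members. Where the coding gene in the name was expressed, 44 of 167 members (26.3%) were expressed, and where it was not, 11 of 138 (7.97%). Over all lincRNA records named after a coding gene these shares were 26.0% and 12.4%.

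The names fall into 3 types. Of 89 members ending in -AS, 87 lay on the strand opposite to the named gene and started downstream of its start, and 24 were expressed. Of 12 ending in -BP, which also lay on the opposite strand, 4 were expressed. The other 204 have a number or no ending, and 27 were expressed. Expressed shares of the 3 types were thus 27.0%, 33.3% and 13.2%. Over all lincRNA records of the same types they were 28.8%, 34.5% and 16.7%, so the types differed there in the same order. Of the 204, 199 lay upstream of the named gene on its own strand, at a median of 402 kb, and 25 of these were expressed. In 42 of the 199 the gap was above 1 Mb, the longest being 3665 kb, so that for these the name is no sign of a close neighbour.

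What the records hold in sequence divides the 55 expressed members further, by a grouping set after their values had been seen. The exons of 27 share bases with a coding exon, in the files' own coding records (24, all on the opposite strand) or only in the GENCODE annotation of hg19 (linc-POU3F3-1, linc-POU3F3-AS and linc-PAX8-5). Another 14 overlap no coding exon but share at least 5% of their 31-base words with 1 protein-coding gene elsewhere in the genome, 9 of them annotated as pseudogenes in GENCODE. The last 14 are neither. By default the counting tool named in the methods does not use strand. Reads from opposite strands, or from near-identical copies, may therefore be shared out between records in the authors' counting. How much of a value of the first 2 kinds comes from the coding gene cannot be told from these data.

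**Figure D1:**
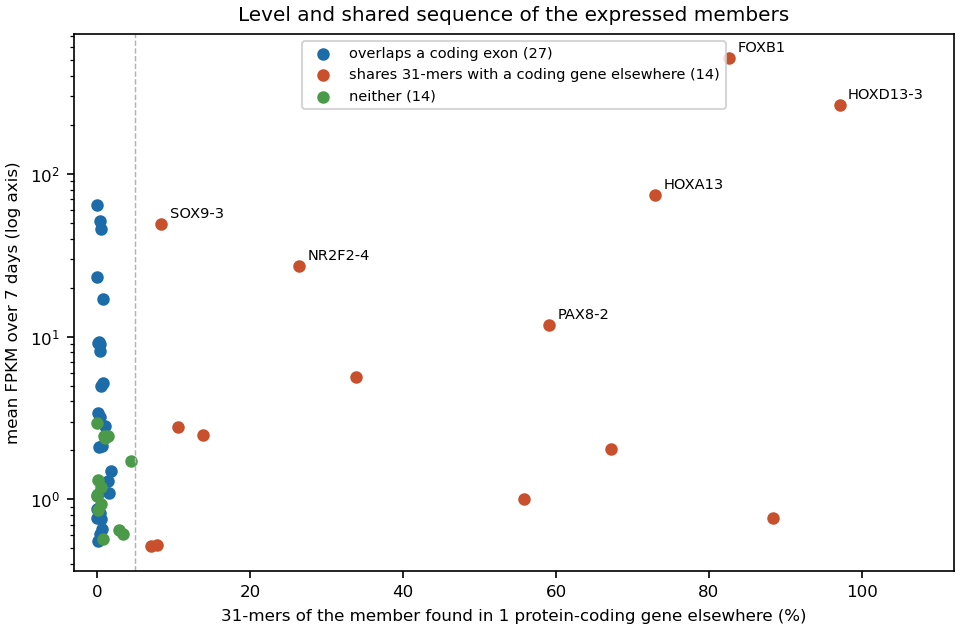
Mean FPKM over 7 days (vertical, log axis) of the 55 expressed members against the share of their 31-base words found in 1 protein-coding gene elsewhere (horizontal, percent). Each point is 1 member, coloured by kind, and the dashed line marks 5%. The 3 highest members, linc-FOXB1, linc-HOXD13-3 and linc-HOXA13, lie at 82.6%, 97.1% and 73.0%.

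The most abundant members were of the second kind. linc-FOXB1, linc-HOXD13-3 and linc-HOXA13 together made up 63.4% to 72.5% of the summed FPKM of all 305 members on each day. linc-FOXB1 has 88.8% of its exon bases in the annotated pseudogene RPS3AP6 and shares 82.6% of its 31-base words with RPS3A, a ribosomal protein gene. linc-HOXD13-3 shares 97.1% with H3-3A, which encodes the replacement histone H3.3, and linc-HOXA13 has 26.9% of its exon bases in EIF4HP1 and shares 73.0% with EIF4H, a translation initiation factor gene. None of these source genes is a neighbour: FOXB1 lies 235 kb from its namesake, HOXD13 1372 kb and HOXA13 256 kb, while RPS3A is on chromosome 4, H3-3A on chromosome 1 and EIF4H on the same chromosome 7 as linc-HOXA13.

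How close these copies are can be read from the first 60 coding bases of each source gene beside the same stretch within the genomic span of the lincRNA record. They are shown because they bear on what the FPKM of these members can count. Letters are from the hg19 genome and the GENCODE transcripts, 5′ to 3′ in the direction of the source gene, and capitals mark bases that differ.
linc-FOXB1, chr15:60060551-60060610 (+): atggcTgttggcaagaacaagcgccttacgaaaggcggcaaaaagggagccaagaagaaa
RPS3A: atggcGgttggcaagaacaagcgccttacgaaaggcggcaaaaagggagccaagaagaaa
linc-HOXD13-3, chr2:175584636-175584695 (+): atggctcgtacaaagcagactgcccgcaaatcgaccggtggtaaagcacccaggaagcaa
H3-3A: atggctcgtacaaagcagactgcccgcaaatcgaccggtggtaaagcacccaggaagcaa
linc-SOX9-3, chr17:69617119-69617178 (+): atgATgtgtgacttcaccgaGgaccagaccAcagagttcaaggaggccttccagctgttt
MYL6: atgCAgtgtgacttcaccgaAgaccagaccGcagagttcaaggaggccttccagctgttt
linc-PAX8-2, chr2:114415485-114415544 (+): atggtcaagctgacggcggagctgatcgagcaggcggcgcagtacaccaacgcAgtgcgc
SNRPA1: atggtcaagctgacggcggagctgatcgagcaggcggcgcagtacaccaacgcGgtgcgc

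Without gaps, linc-FOXB1 matched 788 of 792 coding bases of RPS3A (99.5%), linc-HOXD13-3 matched all 408 of H3-3A (100%), linc-PAX8-2 matched 754 of 765 of SNRPA1 (98.6%) and linc-SOX9-3 matched 416 of 456 of MYL6 (91.2%). In linc-PAX8-2 the copy lies on the strand opposite to the one the record is assigned to. These matches were sought over the whole span of each record, introns included, so they can lie partly outside its exons. linc-FOXB1, for example, has 778 exon bases. The span of linc-HOXD13-3 holds a whole histone coding sequence, letter for letter.

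The day profiles of these members were close to those of the source genes. In day order, linc-FOXB1 had 427, 468, 571, 678, 535, 539 and 374 FPKM, and RPS3A had 156, 179, 216, 248, 195, 197 and 157. Both were highest at day 4, and Pearson's r of log2(FPKM + 0.1) over the 7 days was 0.97, given as a description since the days are 1 course. linc-HOXA13 had 107, 74.8, 84.1, 77.3, 70.5, 60.0 and 43.1 FPKM and EIF4H had 163, 118, 123, 117, 108, 89.5 and 67.6, with r of 1.00 and differences from day 0 to day 18 of -1.31 and -1.27. linc-HOXD13-3 stayed between 228 and 329 FPKM and the record at the H3-3A locus, which carries the symbol H3F3B in the files, between 179 and 261, with r of 0.98.

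Smaller members of this kind repeated the pattern. linc-SOX9-3 went from 94.1 FPKM at day 0 to 34.2 at day 18 (-1.46), beside MYL6, a myosin light chain gene, from 1324 to 423 (-1.65; r = 0.98). linc-PAX8-2 went from 25.3 to 5.19 (-2.26), beside SNRPA1, a spliceosome subunit gene, from 14.9 to 3.39 (-2.10; r = 0.98). linc-NR2F2-4 went from 13.6 to 22.2 with a high of 36.6 at day 4, beside the NOP53 locus (symbol GLTSCR2 in the files) from 61.3 to 95.5 with a high of 164 at day 4 (r = 1.00).

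In all, 11 of the 14 had an r of at least 0.7 with the source gene. They include linc-POU3F1-3 with HSPA5 (r = 0.96), linc-FOXD4L4-3 with ANKRD20A3 (0.95), linc-FOXD1-2 with FUNDC2 (0.94), linc-NR2F1-1 with POLD2 (0.92) and linc-ZIC4-4 with UBQLN4 (0.88). The other 3 were low members, linc-FOXJ2 with HSPD1 (0.13), linc-OTX2-2 with SLCO1A2 (-0.37) and linc-FOXD4L5 with CBWD5 (-0.47). linc-OTX2-2 shares only 7.09% of its words with SLCO1A2, whose mean was 0.0426 FPKM against 0.514 for the member. The median r with the source gene was 0.95. With the coding gene in the name, for the 8 of the 14 whose named gene was expressed, it was -0.19, and none reached 0.7. linc-SOX9-3 shows the contrast: SOX9 itself, a factor of neural stem cells and glia, went from 7.25 to 34.8 FPKM (2.24) while linc-SOX9-3 was lower at day 18. By the same measure over 11520 coding records, those most like linc-FOXB1 were CIRBP, RPS4X and RPL18 (r of 1.00, 1.00 and 0.99). Those most like linc-HOXD13-3 were ZNF708, the record at the H3-3A locus (symbol H3F3B), which is its source gene, and ZNF432 (0.99, 0.98 and 0.97). Those most like linc-HOXA13 were DNAJB12, C20orf4 and BTG3 (1.00 each). RPS3A and EIF4H were not among them, and ZNF708 ranked above the H3-3A locus. A high r was thus not particular to the source gene. The share of all coding records with an r of at least 0.7 was not computed.

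**Figure D2:**
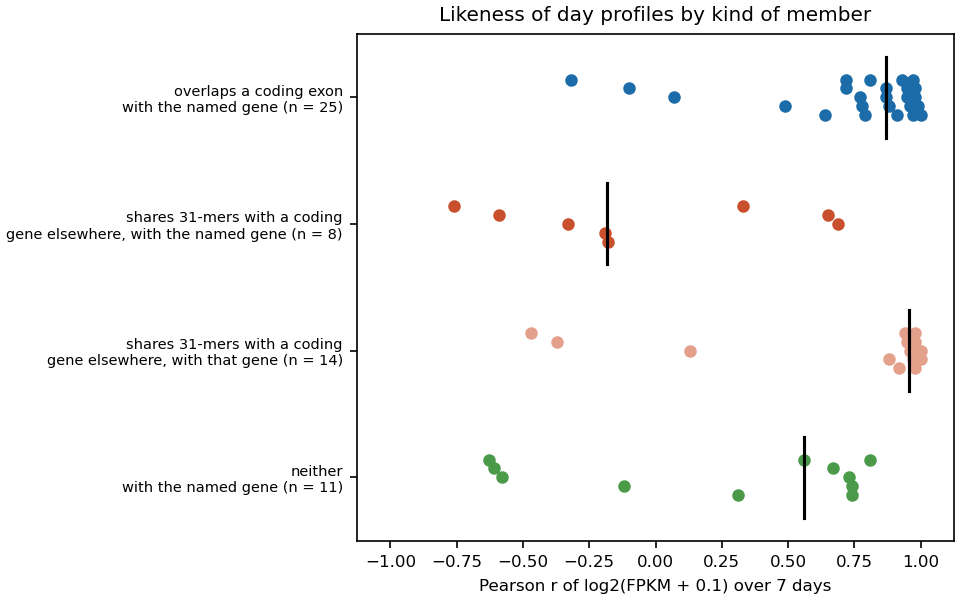
Pearson's r of log2(FPKM + 0.1) over 7 days for pairs with both records expressed (for source genes, all 14), with 1 point per pair and a black line at each median. Members that overlap a coding exon have a median r of 0.87 with the named gene, those that share sequence with a gene elsewhere -0.19 with the named gene and 0.95 with the source gene, and the rest 0.56.

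Members that overlap a coding exon were the group whose values ran closest to the gene in their name. For 25 of the 27 both records were expressed, and 20 of these pairs had an r of at least 0.7, with a median of 0.87. In the files' own records 24 members overlap a coding exon, at 6.03% to 98.4% of their exon bases (median 26.0%). For 21 of them the main overlap is with the gene in the name, and 20 had a lower mean FPKM than the coding record they overlap. The part of shared reads in these likenesses was not tested.

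linc-POU2F2-AS had the largest difference among all expressed members. Its FPKM was 0.566, 0.618, 1.05, 1.60, 3.19, 7.05 and 9.59 at days 0 to 18, higher at each day than at the one before, and its difference from day 0 to day 18 was 3.86. POU2F2, an octamer-binding factor, had 1.13, 1.40, 2.15, 2.94, 5.44, 13.3 and 18.9 FPKM and a difference of 3.94, with r of 1.00. Of the exon bases of linc-POU2F2-AS, 40.8% lie opposite a coding exon of POU2F2 in the files and 78.8% in GENCODE.

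linc-PAX6-AS, which shares only 1.21% of its exon bases with PAUPAR, had 0.580, 0.768, 0.768, 0.954, 1.10, 2.04 and 1.35 FPKM, a difference of 1.09. PAX6, a factor of cortical progenitors, had 4.31, 6.42, 6.41, 8.23, 7.80, 14.3 and 10.4 (1.25; r = 0.98). Both were highest at day 11, and 12.0% of the member's exon bases lie opposite PAX6 exons in the files against 65.5% in GENCODE.

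The POU3F3 region, which also holds PANTR1, gave the highest members apart from the copies. linc-POU3F3-AS, with 22.3% of its exon bases in PANTR1 exons, had 56.1, 37.8, 38.2, 39.9, 43.8, 81.1 and 60.0 FPKM. linc-POU3F3-1 had 63.8, 53.2, 62.9, 61.2, 62.0, 82.9 and 66.9. POU3F3, a class III POU factor of cortical neurons, had 39.6, 32.7, 40.9, 36.2, 35.5, 51.1 and 39.3. All 3 were lowest at day 1 and highest at day 11, and from day 0 to day 18 they differed by 0.10, 0.07 and -0.01. The records are not independent: 98.9% of the exon bases of linc-POU3F3-1 are also exon bases of linc-POU3F3-AS on the other strand, and 68.1% lie in POU3F3 exons of GENCODE on its own strand, before the start of the files' POU3F3 record.

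The upstream sequences of PANTR1 and POU3F3 are shown because the 2 genes point away from each other and linc-POU3F3-AS, which shares exon bases with PANTR1, had r of 0.81 with POU3F3. They are the 250 bases before each RefSeq start in GRCh38.p14, 5′ to 3′ on the gene's strand, and the 2 starts are 2639 bases apart. The record linc-POU3F3-AS itself starts beyond the PANTR1 start, with 3.67% of its exon bases opposite POU3F3 exons of GENCODE. The PANTR1 window is therefore not the sequence before that record. Capitals mark matches on either strand to the octamer ATGCAAAT, to TATAAA or to CCAAT.
PANTR1, chr2:104851477-104851726 (-): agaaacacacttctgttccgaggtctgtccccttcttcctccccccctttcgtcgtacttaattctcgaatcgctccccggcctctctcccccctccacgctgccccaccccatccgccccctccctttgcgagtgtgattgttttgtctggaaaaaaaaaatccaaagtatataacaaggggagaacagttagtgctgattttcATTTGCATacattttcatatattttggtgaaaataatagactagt
POU3F3, chr2:104853865-104854114 (+): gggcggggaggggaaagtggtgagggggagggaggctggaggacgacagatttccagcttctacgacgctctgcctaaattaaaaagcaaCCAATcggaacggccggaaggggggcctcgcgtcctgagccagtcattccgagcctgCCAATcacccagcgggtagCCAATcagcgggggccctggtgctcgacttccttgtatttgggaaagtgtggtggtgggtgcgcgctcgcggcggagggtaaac

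The PANTR1 sequence holds 1 octamer match, read on the other strand, and the POU3F3 sequence holds 3 CCAAT matches and no octamer. Over 35116 RefSeq starts, 1.63% of such 250-base windows hold the octamer, 10.7% TATAAA and 32.0% CCAAT. The windows hold 9 and 18 CG pairs, against a median of 11. A match is a run of letters and says nothing of binding in these cells. Of the 305 members, 91 share exon bases with a GENCODE gene that has a RefSeq entry of this kind.

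linc-IRX5-AS, with 28.5% of its exon bases in CRNDE, was the third member above 40 FPKM in this group. It had 27.9, 43.2, 41.0, 45.6, 44.3, 66.2 and 52.5 FPKM, a difference of 0.91, and was above IRX5 in mean FPKM (45.8 against 20.2). IRX5, an Iroquois homeobox factor, had 15.3, 15.0, 13.5, 18.1, 19.8, 32.8 and 27.2 (0.82; r = 0.79). Only 6.03% of the member's exon bases lie opposite IRX5, the smallest overlap of the 24. From day 0 to day 1 the member was higher and IRX5 was level, whereas both were highest at day 11.

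The expressed SOX antisense members differed by less than 2-fold between days 0 and 18. linc-SOX21-AS (20.9% of its exon bases in SOX21-AS1) went from 16.1 FPKM by way of 21.6 on day 5 to 10.7 on day 18, and SOX21 from 38.2 by way of 45.1 to 24.0 (r = 0.97). linc-SOX11-AS started at 8.69 and had 14.5 on day 11 and 12.5 on day 18, with r of 0.98 to SOX11. linc-SOX1-AS lies almost wholly opposite SOX1 exons (98.4%) and yet had a mean of 23.2 FPKM against 12.8 for SOX1, with r of 0.64. linc-SOX12-AS (21.7% of its exon bases in NRSN2-AS1) was higher by 1.47 at day 1 than at day 0 and had r of 0.49. SOX1, SOX2 and SOX3 keep cells in the progenitor state, while SOX11 acts in young neurons.

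Among the other antisense members above 1 FPKM, linc-POU3F4-AS had 7.81, 14.3 and 7.16 FPKM on days 0, 11 and 18, and POU3F4 5.77, 11.3 and 5.46 (r = 0.99). All of its exon bases (100%) lie opposite POU3F4 in GENCODE, against 29.6% in the files. linc-NR2F1-AS went from 7.08 to 11.3 and 7.12 over the same days (r = 0.78) and linc-NR2F2-AS from 2.32 to 3.06 and 1.59 (r = 0.91). NR2F1 and NR2F2 are nuclear receptors of early neural patterning. linc-FOXB1-AS was highest at day 2 with 11.1 FPKM and lowest at day 18 with 4.21 (r = 0.95), and linc-FOXK1-AS stayed between 1.23 and 1.83 (r = 0.72).

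linc-SIX5-AS stayed between 2.43 and 3.78 FPKM. It overlaps mainly DMPK (r = 0.86) and had r of 0.93 with SIX5. linc-MEIS3-AS (mean 2.82 FPKM; r = -0.10) and linc-POU3F1-AS (mean 2.12; r = -0.32) were the 2 pairs of this kind below 0. linc-PAX8-5, the last of this kind above 1 FPKM, lies 428 kb from PAX8 and wholly within GENCODE exons of SLC35F5 on the same strand. It had a mean of 4.98 FPKM and r of 0.83 with the files' SLC35F5 record (mean 10.1 FPKM), against -0.30 with PAX8.

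The antisense members at least 2-fold lower at day 18 were lower together with their genes. linc-NR2F6-AS went from 1.64 to 0.533 FPKM (-1.46) and NR2F6 from 34.2 to 10.6 (-1.68; r = 0.97). linc-ZIC5-AS went from 1.21 to 0.427 (-1.31) and ZIC5 from 4.73 to 1.84 (-1.31; r = 0.95), with most of the difference between day 11 (1.28 FPKM) and day 18. linc-FOXM1-AS went from 2.28 to 0.952 (-1.18) and FOXM1, a factor of dividing cells, from 51.3 to 6.68 (-2.92; r = 0.77). Its exons also overlap ITFG2, on its own strand, in GENCODE. The ITFG2 record differed by -0.74, and r was 0.69. Relative to the median record, linc-NR2F6-AS, linc-ZIC5-AS and linc-FOXM1-AS differed by -0.90, -0.75 and -0.62. On that scale NR2F6, ZIC5 and FOXM1 differed by -1.12, -0.76 and -2.36.

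**Figure D3:**
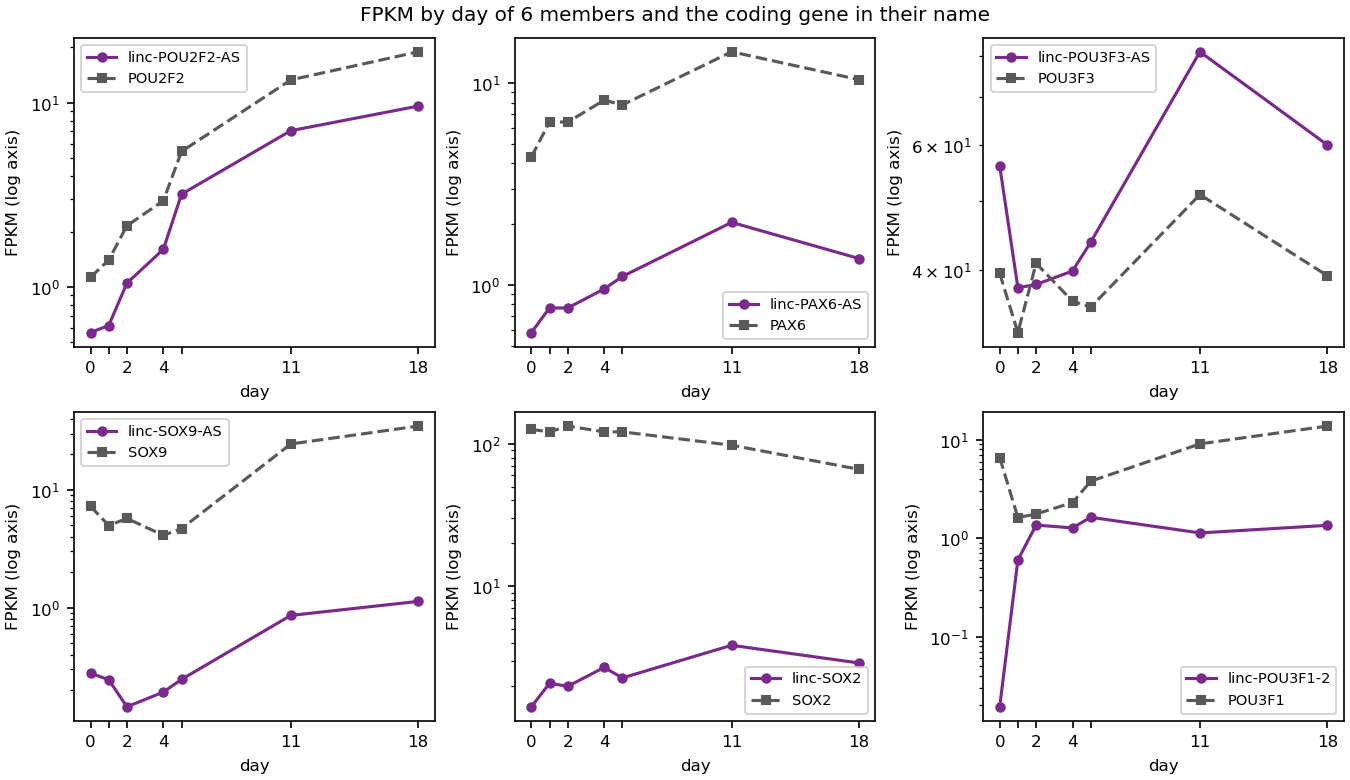
FPKM by day (horizontal, days 0 to 18; vertical, log axis with a range of its own in each panel) of 6 members (circles, solid line) and the coding gene in their name (squares, dashed line). Each point is the deposited value of 1 day, without error. linc-POU2F2-AS, linc-PAX6-AS, linc-POU3F3-AS and linc-SOX9-AS run close to their gene (r of 1.00, 0.98, 0.81 and 0.97), while linc-SOX2 and linc-POU3F1-2 do not (-0.58 and -0.12). linc-POU2F2-AS, linc-PAX6-AS and linc-POU3F3-AS overlap exons of that gene, so reads may be shared. linc-SOX9-AS (mean 0.442 FPKM) is under the expressed threshold and was chosen after its values were seen.

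The 14 members that are neither overlapping nor copies were the least abundant, with means of 0.571 to 2.95 FPKM. For 11 of them the named gene was expressed, and their r ran from -0.63 to 0.81 with a median of 0.56, 4 pairs reaching 0.7 and 4 lying below 0. Of the 14, 3 were at least 2-fold higher at day 18 and 1 was lower.

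linc-SOX2, with 16.2% of its exon bases in SOX2-OT, starts upstream of SOX2 on the same strand and ends 40.2 kb before it in these records. It had 1.43, 2.09, 1.99, 2.70, 2.28, 3.86 and 2.90 FPKM, a difference of 0.97. SOX2, which keeps neural progenitors dividing, had 126, 121, 133, 121, 121, 97.6 and 66.1 (-0.94; r = -0.58). SOX2 thus had its 2 lowest values at days 11 and 18, the days on which linc-SOX2 had its 2 highest.

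linc-POU3F1-2 had 0.0193, 0.600, 1.36, 1.27, 1.63, 1.13 and 1.35 FPKM. Its difference of 3.61 rests on the near absence at day 0, since every later day lay between 0.600 and 1.63, and it was at least 2-fold higher already at day 1 (2.55) and again at day 2 (1.06). POU3F1, a class III POU factor 253 kb away, had 6.59, 1.62, 1.76, 2.30, 3.79, 9.09 and 13.8 (1.06; r = -0.12). At day 1 the 2 records thus moved in opposite directions.

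The lowest difference was that of linc-MEIS2-1, which has 48.9% of its exon bases in LINC01852 and lies 884 kb from MEIS2. It had 2.72, 1.70, 1.32, 0.957, 1.23, 0.949 and 0.369 FPKM, a difference of -2.59. MEIS2, a homeobox partner of HOX and PAX factors, went from 14.0 to 20.4 (0.53; r = -0.63). linc-SOX9-2, at a mean of 0.571 FPKM, had r of -0.61 with SOX9.

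The distant members linc-POU3F3-6 and linc-POU3F3-2 differed by less than 2-fold between days 0 and 18. linc-POU3F3-6 (LINC01102) went from 2.45 to 3.90 with a low of 1.39 at day 1 (0.65; r = 0.74), and linc-POU3F3-2 from 1.60 to 1.33 (r = 0.31).

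The members on chromosome 9 need care, because the FOXD4L genes lie in near-identical duplicated stretches. linc-FOXD4L4-3 went from 0.188 to 1.27 FPKM (2.25) and linc-FOXD4L4-2 from 0.173 to 0.860 (1.82), both lying 28.0 Mb from the gene in their name. linc-FOXD4L5-AS had a mean of 2.95 FPKM. How reads were shared among the copies is uncertain. linc-FOXP4-BP (FOXP4-AS1), on chromosome 6, had 0.440, 1.79 and 0.336 on days 0, 1 and 18.

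linc-SOX9-AS was just outside the threshold and is named after its values were seen. The higher of the 2 records with that name, which lies wholly within SOX9-AS1 exons and overlaps no coding exon, had 0.278, 0.244, 0.144, 0.192, 0.246, 0.859 and 1.13 FPKM, a difference of 1.70. SOX9 had 7.25, 4.98, 5.72, 4.11, 4.69, 24.5 and 34.8 (2.24; r = 0.97). Both thus stood apart at days 11 and 18 from all earlier days. Other members just outside the threshold went the other way: linc-LHX5-2 had r of -0.66 with LHX5, and linc-MEIS1-7 had -0.52 with MEIS1.

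**Figure D4:**
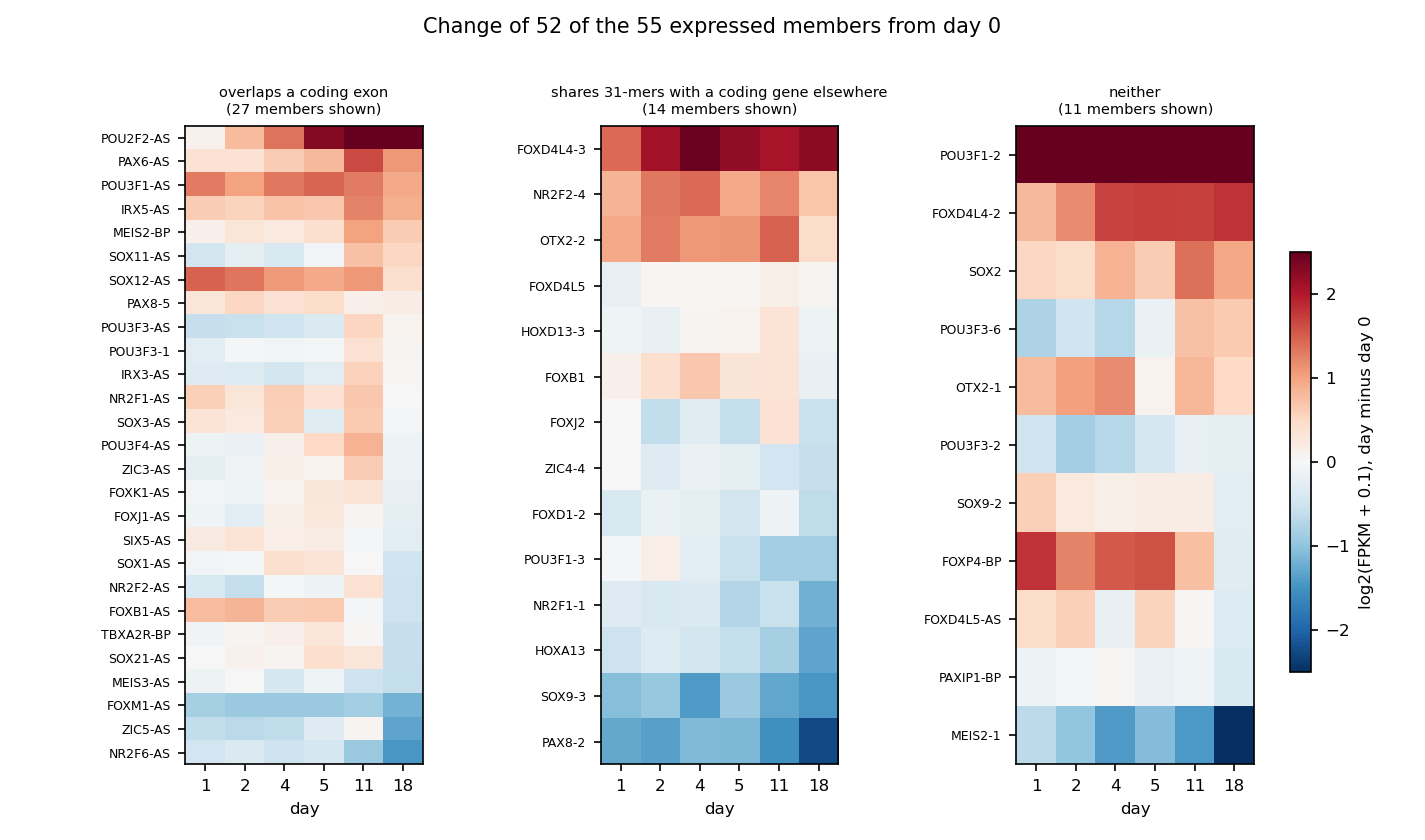
Change of 52 of the 55 expressed members from day 0, as log2(FPKM + 0.1) at days 1 to 18 minus day 0 (columns), in 3 panels by kind of member. Red is higher and blue lower than day 0, and the colours end at 2.5 either way. linc-POU2F2-AS (3.86) and linc-POU3F1-2 (3.61) are the highest at day 18 and linc-MEIS2-1 (-2.59) the lowest.

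At day 18 the members' counts were near those of all lincRNA records. Of the 55 expressed members 6 (10.9%) were at least 2-fold higher than at day 0, where 8.95% of the 4080 expressed lincRNA records were, and 8 (14.5%) were at least 2-fold lower, where 20.0% were. The 6 included linc-POU2F2-AS, linc-POU3F1-2, linc-FOXD4L4-3, linc-FOXD4L4-2 and linc-PAX6-AS. The 8 were linc-MEIS2-1, linc-PAX8-2, linc-SOX9-3, linc-NR2F6-AS, linc-HOXA13, linc-ZIC5-AS, linc-NR2F1-1 and linc-FOXM1-AS. Of these 8, 4 share sequence with a coding gene elsewhere, as do 14 of all 55. Relative to the median of expressed records, 16 members (29.1%) were at least 2-fold higher and 2 (3.64%) lower, where 19.7% and 8.06% of lincRNA records were. The 2 lower were linc-MEIS2-1 (-2.03) and linc-PAX8-2 (-1.70). The split between higher and lower therefore turns with the scaling. The median difference of the members was -0.18, that of lincRNA records -0.32 and that of coding records -0.58.

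Day by day, the largest number of members passed 2-fold at the first step. From day 0 to day 1, 8 of the 55 did (9.98% of lincRNA records did), 6 higher and 2 lower. Those higher included linc-POU3F1-2, linc-FOXP4-BP, linc-SOX12-AS, linc-FOXD4L4-3 and linc-POU3F1-AS, and those lower were linc-PAX8-2 and linc-SOX9-3. Each of the next 4 steps had 1 (background 1.76%, 2.18%, 1.57% and 5.27%): they included linc-POU3F1-2 at day 2, linc-OTX2-1 at day 5, which was lower, and linc-POU2F2-AS at day 11. From day 11 to day 18, 4 members passed it (background 4.66%), all lower: linc-ZIC5-AS, linc-MEIS2-1, linc-FOXP4-BP and linc-OTX2-2. The median member differed by -0.47 at that last step and the median expressed record by -0.28.

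Day 11 was the high point of many members, a pattern noticed in the values and not set out beforehand. Of the 55, 21 (38.2%) had their highest value on day 11, against 16.0% of expressed lincRNA records. Relative to each day's median record the number of members was again 21, against 16.8% of lincRNA records. By kind, 14 of the 27 overlapping members, 4 of the 14 copies and 3 of the other 14 were highest on that day. In 14 of the 18 pairs with both records expressed the coding gene was highest on day 11 too. Of these 18 pairs, 14 were of overlapping members, and in 12 of those 14 the coding gene was highest on that day. Compared with day 0, 14 members (25.5%) were at least 2-fold higher at day 11, where 10.2% of lincRNA records were, and 3 (5.45%) were lower, where 10.8% were. The value of day 11 is 1 estimate, and its error is unknown.

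The coding genes of the same families were often highest on day 11 as well. For members that overlap the exons of these genes this is not a separate observation. Of 196 coding records of these families 69 were expressed, and 22 of the 69 (31.9%) were highest on day 11, against 8.83% of all expressed coding records. From day 0 to day 18, 14 (20.3%) were at least 2-fold higher, where 8.93% of coding records were, and 10 (14.5%) were lower, where 29.4% were. Their median difference was -0.08, or 0.48 relative to the median record, where that of all expressed coding records was -0.02. On that relative scale 15.6% of all expressed coding records were at least 2-fold higher and 12.9% lower. Counts of the family records on that scale are not given, so how far their contrast with all coding records turns with the scaling is open. POU genes had 5 of 10 higher and none lower, whereas of the 3 expressed genes of the family of SIX5 1 was higher and 2 were lower.

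Set beside the gene in the name, 6 of 44 pairs (13.6%) passed 2-fold in the same direction at day 18, where 12.9% of 3290 such pairs over all lincRNA records did, and 1 passed it in opposite directions. With a pseudocount of 1, or without records that overlap a coding exon, 1 pair passed it in the same direction. The 6 were the POU2F2, PAX6, NR2F6, ZIC5 and FOXM1 antisense pairs and linc-POU3F1-2, and the 1 was linc-SOX9-3. In 6 pairs the coding gene alone passed 2-fold, among them linc-SIX5-AS (-0.29, with SIX5 at -1.76). In 5 pairs the member alone did, none of them overlapping a coding exon.

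The median r of the 44 pairs was 0.73, against 0.54 over all such lincRNA pairs. Pairs with overlapping exons in the files' records had a median of 0.87 (23 pairs) against 0.65 for all overlapping lincRNA pairs, and pairs without had 0.33 (21 pairs) against 0.30. By name, the 23 -AS pairs had a median of 0.87 against 0.68 for all -AS pairs, and the 18 pairs with a number or no ending 0.09 against 0.27.

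**Figure D5:**
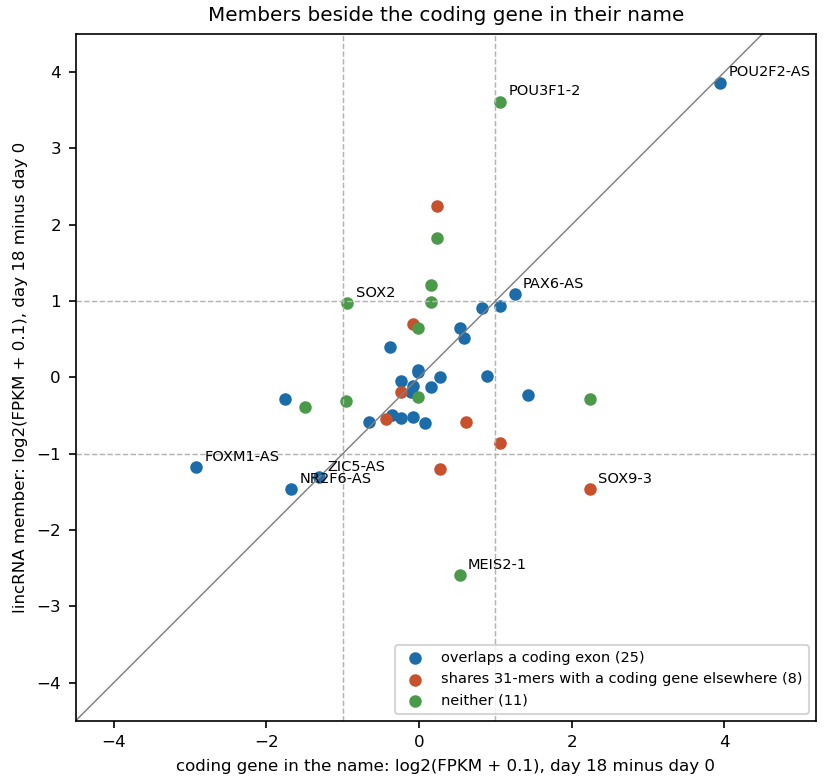
Difference in log2(FPKM + 0.1) from day 0 to day 18 of 44 members (vertical) against that of the coding gene in their name (horizontal), coloured by kind. The solid line marks equal change and dashed lines mark 2-fold. linc-POU2F2-AS (3.86, beside POU2F2 at 3.94) lies on the line and linc-FOXM1-AS (-1.18, beside FOXM1 at -2.92) off it, while linc-SOX9-3 (-1.46) and linc-MEIS2-1 (-2.59) lie far from it.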

How the data were processed

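Polyadenylated RNA of 20 cultures at 7 days was measured by paired-end sequencing. By the methods of the study, reads were aligned by the authors to hg19 with TopHat2 at default options. They assembled transcripts with Cufflinks and estimated 1 FPKM per record and day with Cuffdiff2 over the cultures of a day (versions not given in the sources used here). The deposited tables hold these FPKM values, a codon substitution score set by the authors for each transcript and a pseudogene flag, and 0 columns of single cultures. Total counts are not given, so that depth is unknown. Cuffdiff2 too was run at its defaults, under which reads are taken as unstranded, and the library kit (TruSeq RNA) is named without a strand step. A second table holds the authors' own comparisons between days (fold changes, test statistics, p- and q-values), which were not used.

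Records were matched to coding genes by symbol and to GENCODE (lifted to hg19) by position, taking the gene with the most shared exon bases on the same strand. Differences are of log2(FPKM + 0.1). The 31-base words of expressed members were searched on both strands of the GENCODE transcripts. Python 3.11.15, numpy 2.4.6, pandas 2.3.3 and matplotlib 3.10.9 were used, and the functions were tested on simulated FPKM. Members named with values have a mean of at least 1 FPKM, are among the 10 highest or 10 lowest differences, or the 5 highest or 5 lowest r, and for the 3 highest members the 3 most alike coding records are named. Members at the threshold, most of those past 2-fold at a step and all those sharing sequence with a gene elsewhere are named too, after their values were seen. The members, lists and tests were chosen with earlier results of these data known. The grouping by shared sequence, the day 11 comparison and the choice of linc-SOX9-AS were made after the values had been seen. Alternatives covered the scaling, the pseudocount, the expression threshold, the fold, the days compared and the records left out. The values of 3 expressed members are not reported here, though counts and medians include them.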

Additional observations from a re-analysis of the deposited data

How the results depend on the processing

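With 1 value per record and day no error is known, and values under about 1 FPKM rest on few reads. No paired analysis was possible because the files hold no values of single cultures, and leaving out replicates could not be run for the same reason. The counts of members at least 2-fold higher and lower at day 18 (6 and 8) and the median difference (-0.18) depended on most settings. Recentred on the median of expressed records they were 16, 2 and 0.38, with 2, 6 and 1 members past 2-fold at the steps to days 5, 11 and 18. With a pseudocount of 1 they were 2, 4 and -0.11, the median r was 0.74, and 3 members passed 2-fold at the step to day 1 and 0 at each later step. With a pseudocount of 0.01 the median difference was -0.19, the median r 0.72, and 2, 3 and 3 members passed at the steps to days 2, 5 and 11. With a mean of at least 0.1 FPKM, 87 members were expressed, 16 were higher, the median was 0.01, the median r 0.72, and 2, 2, 3, 5 and 7 members passed at the steps to days 2, 4, 5, 11 and 18. With a mean of at least 1 FPKM the median was -0.19 and the median r 0.72, with 0, 0 and 2 at the steps to days 4, 5 and 18. With no filter 20 were higher and 15 lower, with a median of 0.00. At 1.5-fold 13 were higher, and 20, 6, 3, 5, 13 and 15 passed at the 6 steps in order. At 4-fold 3 were higher and 2 lower, with 1 at the step to day 1 and 0 after. Without records that overlap an exon of the authors' own coding records, 31 were expressed, 5 were lower and the median r was 0.33. linc-POU3F3-1, linc-POU3F3-AS and linc-PAX8-5, which overlap a coding exon only in GENCODE, stayed in, as did the copies. Without records carrying the pseudogene flag 4 were lower, with a median of -0.16 and a median r of 0.74. With overlapping members counted once the median was -0.19 and the median r 0.72. Day 11 in place of day 18 gave 14 higher, 3 lower and a median of 0.35, and linc-ZIC5-AS then turned from -1.31 to 0.08. Day 1 in place of day 0 gave 4 lower and a median of -0.28. Without members that share sequence with a coding gene elsewhere, a setting chosen after seeing the data, 4 were lower, the median was -0.12 and the median r 0.77. Pairs past 2-fold in the same direction (6) numbered 1 with a pseudocount of 1, at 4-fold and without records that overlap a coding exon, and 11 with a mean of at least 0.1 FPKM. Where no construction of the setting shows it, the cause was not tested.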
